A study of Homo sapiens with 6 samples.

Results

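The genes described here serve the endoplasmic reticulum (ER) in 5 roles. They comprise 3 stress sensors with the transcription factor XBP1, 15 chaperones and disulfide isomerases, 8 genes of ER-associated degradation (ERAD), 5 subunits of the translocon and 10 genes of the COPII coat. They were listed by symbol, and all 42 were found among the 25202 rows of a table of read counts per gene. RNA was sequenced from Huh7, a hepatoma line established from a human liver tumour. The 3 control libraries came from cells given the guide sgNC and carry the genotype label WT. The other 3 came from cells given the guide sghnRNPA2B1 and are labelled KO. The targeted gene, HNRNPA2B1, makes a nuclear protein that binds RNA and takes part in splicing. No label says that replicates were grown apart or that the knockout is 1 clone, so a p-value here reflects only how these libraries vary, and that variation may be technical.

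Proteins that are secreted or sit in membranes enter the ER through the SEC61 channel. They are folded there by chaperones such as BiP (HSPA5) and by disulfide isomerases, and leave in vesicles coated with COPII. Unfolded protein activates the sensors ATF6, IRE1 (ERN1) and PERK (EIF2AK3), which together start the unfolded protein response, and misfolded chains are sent back to the cytosol by ERAD. Hepatocytes secrete most plasma proteins and so carry a heavy load on this route.

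Promoters of several of these genes hold the ER stress response element (ERSE), a CCAAT box bound by NF-Y followed at a fixed spacing by CCACG, which ATF6 and XBP1 recognise. RefSeq promoter windows on GRCh38.p14, from 250 bases before to 50 after each start site, were searched on both strands for ERSE, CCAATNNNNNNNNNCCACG, and for ERSE-II, ATTGGNCCACG. The submitters' processing notes name another build, hg19, for the counts, so these windows were matched by symbol only. Windows were at hand for 39 of the 42 genes, and some genes have several. A gene was counted if any of its windows matched. ERSE was found for 7 of the 39 and for 0.0916% of all 27305 genes with windows, and ERSE-II for 3 of the 39 and 0.0696% of those genes. Only exact letters were searched, so a variant or more distant element would be missed. XBP1 and PDIA6 held ERSE in 1 of 2 windows and CANX in 3 of 4. The stretches are shown because they mark where these exact matches lie, with the fixed letters in capitals. They read 5′ to 3′ on the gene's strand. CGTGG with ATTGG, or CGTGG with CCAAT, is the same element on the other strand. The ERSE stretches lie at chr9:125241356-125241445, minus strand (HSPA5), chr12:103930206-103930349, plus strand (HSP90B1), chr19:12938359-12938448, plus strand (CALR), chr5:179698742-179698831, plus strand (CANX), chr2:10812818-10812907, minus strand (PDIA6), chr22:49918518-49918607, plus strand (CRELD2) and chr22:28800570-28800659, minus strand (XBP1). HSP90B1 has 2 elements.
HSPA5: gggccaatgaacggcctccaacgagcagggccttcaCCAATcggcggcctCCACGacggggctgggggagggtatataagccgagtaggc
HSP90B1: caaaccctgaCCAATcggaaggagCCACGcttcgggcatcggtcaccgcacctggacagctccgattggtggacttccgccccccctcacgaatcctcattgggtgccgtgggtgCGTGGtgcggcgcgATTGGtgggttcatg
CALR: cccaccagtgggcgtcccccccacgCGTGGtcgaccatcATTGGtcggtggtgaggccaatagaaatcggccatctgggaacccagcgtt
CANX: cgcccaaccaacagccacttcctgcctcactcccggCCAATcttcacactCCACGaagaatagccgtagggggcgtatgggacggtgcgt
PDIA6: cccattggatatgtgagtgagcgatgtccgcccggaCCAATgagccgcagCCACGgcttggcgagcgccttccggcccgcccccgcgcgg
CRELD2: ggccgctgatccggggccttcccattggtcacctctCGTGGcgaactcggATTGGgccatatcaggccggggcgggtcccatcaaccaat
XBP1: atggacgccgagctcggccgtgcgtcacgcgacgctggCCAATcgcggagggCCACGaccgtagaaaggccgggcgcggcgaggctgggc
ERSE-II stretches lie at chr16:56931985-56932074, plus strand (HERPUD1), chr22:21642074-21642163, plus strand (SDF2L1) and chr11:119057264-119057400, minus strand (HYOU1), where HYOU1 has 2 elements.
HERPUD1: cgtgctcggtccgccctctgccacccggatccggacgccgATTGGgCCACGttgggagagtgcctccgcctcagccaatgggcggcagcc
SDF2L1: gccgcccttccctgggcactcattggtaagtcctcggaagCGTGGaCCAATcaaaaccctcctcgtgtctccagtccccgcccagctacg
HYOU1: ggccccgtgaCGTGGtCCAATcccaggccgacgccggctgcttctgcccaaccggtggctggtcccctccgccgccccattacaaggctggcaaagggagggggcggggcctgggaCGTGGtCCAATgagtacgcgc

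Library totals ran from 32517757 to 38870244 counts, and 16331 genes had enough counts to be tested. Levels are CPM, counts scaled to library size with TMM factors. HNRNPA2B1 itself had 1101, 1072 and 1468 CPM in the controls and 219.9, 235 and 234 CPM in the knockout libraries, so the labels and the targeted gene go together. On the second principal component, with 13.1% of the variance, control replicate 3 stood apart at −51.3 against 29.1 and 25.3 for the other controls. Of 10 hepatocyte markers all were tested and 9 fell, with a summed level of 18194 to 21896 CPM in the controls and 11056 to 12013 CPM in the knockout. The 6 fibroblast markers summed to 1.86 to 3.04 CPM in the controls and 8.86 to 25.5 CPM in the knockout, the highest being knockout replicate 2, and 3 of the 4 tested rose. Leukocyte markers, mostly LYZ and CD68, summed to 509 to 578 CPM in the controls and 218 to 238 CPM in the knockout, and 2 of the 3 tested fell, while PTPRC and CD3E had no count in any control. Sums for endothelial markers, nearly all PECAM1, were 54.3 to 70.4 CPM in the controls and 31.0 to 35.2 CPM in the knockout, and PECAM1, the 1 tested, fell, while TEK had no count in any library. For cholangiocyte markers, mostly EPCAM and SOX9, they were 360.1 to 507 CPM in the controls and 303 to 318 CPM in the knockout, with 1 rise and 1 fall among 3 tested. All libraries are labelled Huh7, a cell line, so a marker named for another cell type does not by itself show such cells. The part of these shifts in the results below was not tested. In bulk RNA, fewer cells with a transcript and less of it per cell cannot be told apart.

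Of the 42 genes, 17 fell and 4 rose in the knockout, called where the edgeR quasi-likelihood p, adjusted over all tested genes, was under 0.05. That is 21 genes, where 40.1% of all tested genes were called in either direction. Falls made up 40.5% of the genes against a background of 19.0% of all tested genes, and rises 9.52% against 21.1%. These genes are abundant, with a mean log2 CPM of 4.30 to 10.5, and abundant genes fell more often. Among the 6314 genes at a mean log2 CPM of 5 or more, 33.5% fell and 12.8% rose. All but 1 of the 42 genes reach that abundance. Median log2 fold changes were −0.26 over the list, −0.17 over the abundant genes and 0.05 over all genes. Knockout and control libraries did not overlap for 30 of the 42, or 71.4%, against 54.3% of all genes.

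**Figure D1:**
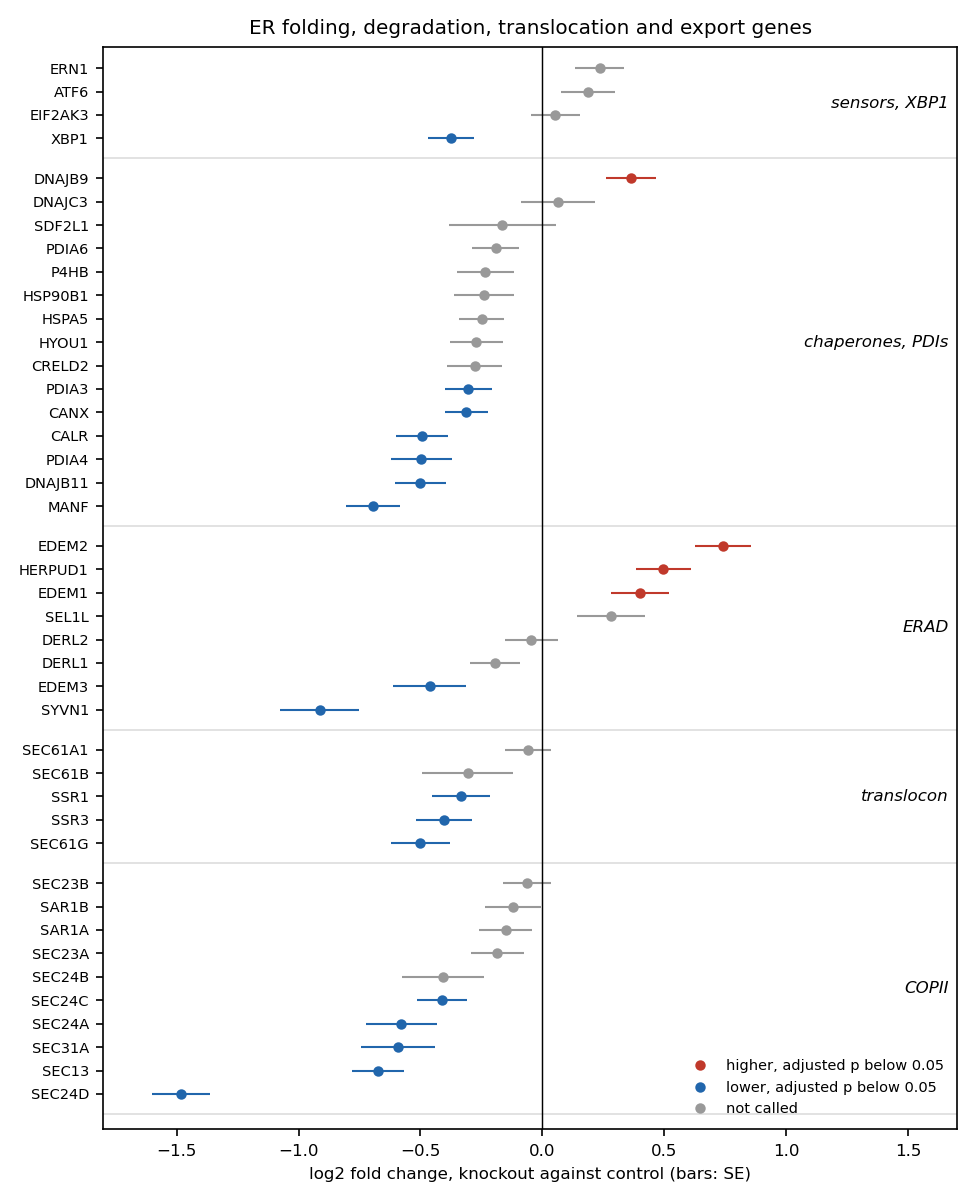
Log2 fold change of the 42 genes, knockout against control, by role, with bars for the SE. Red points are higher and blue points lower at an adjusted p below 0.05, and grey points were not called. SEC24D lies lowest at −1.48 and EDEM2 highest at 0.74, and the 3 called rises outside the chaperones are all in ERAD.

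Both counts depended on the libraries and on the scaling. Without knockout replicate 1, 2 or 3 in turn, 10, 8 and 13 genes fell and 2 rose each time. Leaving out control replicate 3 gave 20 falls and 5 rises. Scaling by library size alone, which moves all genes up by 0.18 on the log2 scale, gave 8 falls and 7 rises. The list's median relative to that of all genes was −0.31 with either scaling. Cyclic loess, which levels the trend with abundance, gave 6 falls and 6 rises, and a relative median of −0.02. The 7 called genes that kept their call under all 17 alternatives were SEC24D, SYVN1, SEC13, MANF and DNAJB11 among the falls and EDEM2 and HERPUD1 among the rises.

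**Figure D2:**
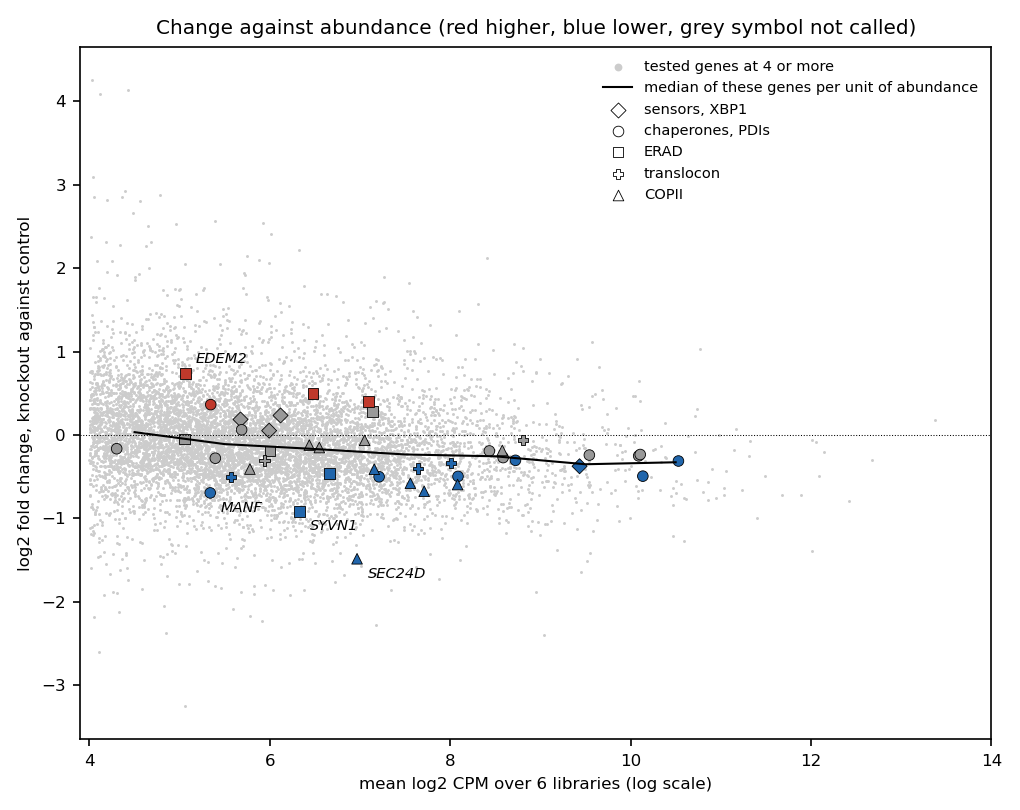
Log2 fold change against mean log2 CPM for the 8652 tested genes at 4 or more (grey dots) and the 42 genes (symbols by role, red higher, blue lower, grey not called). The black line is the median of the grey dots per unit of abundance. It slopes downward, and SEC24D, SYVN1, MANF and EDEM2 lie away from it.

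With TMM scaling the 3 stress sensors were not called, and XBP1 fell. ERN1 (ENSG00000178607), whose RNase splices the XBP1 mRNA, had 62.2, 63.4 and 66.5 CPM in control replicates 1, 2 and 3 and 75.9, 72.4 and 77.6 CPM in knockout replicates 1, 2 and 3. The knockout libraries all lay above the controls by a small step, 0.23 ± 0.10 on the log2 scale (SE, edgeR adjusted p = 0.0846, 95% interval 0.01 to 0.45). It was called higher with upper-quartile scaling, library size alone, cyclic loess and Ensembl rows alone. ATF6 (ENSG00000118217), which is cut in the Golgi to release a transcription factor, had 44.6, 45.3 and 53.9 CPM in the controls and 53.9, 54.5 and 55.2 CPM in the knockout libraries. Unrounded, the highest control lay just under the lowest knockout library, and the difference of 0.19 ± 0.11 was not called (edgeR adjusted p = 0.21), except with library size alone. EIF2AK3 (ENSG00000172071), the kinase that slows translation, had 63.5, 59.1 and 64.9 CPM in the controls and 66.8, 63.6 and 63.9 CPM in the knockout libraries. These groups overlapped, and the interval of the log2 difference was −0.17 to 0.28.

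XBP1 (ENSG00000100219), the transcription factor made from spliced mRNA, had 779.9, 832 and 753 CPM in control replicates 1, 2 and 3 and 588, 598 and 637 CPM in knockout replicates 1, 2 and 3. Every knockout library lay below every control, and the mean went from 788 ± 40.4 to 608 ± 25.9 CPM (SD, n = 3 each), a log2 fold change of −0.37 ± 0.09 (SE, edgeR adjusted p = 0.0102). The call was lost with library size alone (−0.19), with cyclic loess (−0.06), and when knockout replicate 1 or 2 was dropped. Counts per gene do not tell the spliced from the unspliced form. Per kilobase of the longest transcript, XBP1 stood at 363 CPM per kb in the controls, far above ATF6 at 6.39, ERN1 at 8.13 and EIF2AK3 at 13.5 CPM per kb.

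Among the 15 chaperones and disulfide isomerases, 6 fell (40.0%, against 33.5% of all genes at a mean log2 CPM of 5 or more). A rise was called for 1 (6.67% against 12.8%), and the other 8 were not called. Falls numbered 10 without control replicate 3, 4, 3 and 4 without knockout replicates 1, 2 and 3 in turn, 3 with library size alone and 2 with cyclic loess. Their summed level was 8160.3 ± 255 CPM in the controls and 6588 ± 157 CPM in the knockout (SD, n = 3 each). The largest fall was that of MANF (ENSG00000145050), a secreted ER protein that binds BiP. Its libraries held 52.4, 55.2 and 46.8 CPM in control replicates 1, 2 and 3 and 33.6, 30.7 and 31.1 CPM in knockout replicates 1, 2 and 3. The groups were well apart, 1.62-fold lower in the knockout (log2 −0.69 ± 0.11 SE, edgeR adjusted p = 0.000999). DNAJB11 (ENSG00000090520), a J-domain partner of BiP, had 167, 189.8 and 172 CPM in the controls and 131, 118 and 125 CPM in the knockout libraries. It fell by 0.50 on the log2 scale (adjusted p = 0.00388), and the groups did not overlap.

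Calreticulin (CALR) and calnexin (CANX), the lectin chaperones that hold glycoproteins, both fell with TMM scaling. CALR went from 1338 ± 159.8 to 951 ± 40.4 CPM (SD, n = 3 each; log2 −0.49, edgeR adjusted p = 0.00513). CANX went from 1649 ± 86.1 to 1328 ± 27.8 CPM (−0.31, 0.0175), a change that turned to 0.05 with cyclic loess and was also not called with library size alone or without any 1 knockout library. Of the disulfide isomerases, PDIA3, the partner of both lectins, fell by 0.30 and PDIA4 fell by 0.50 on the log2 scale (edgeR adjusted p = 0.0291 and 0.0109). Both of these calls, and that of CALR, were lost with cyclic loess, at −0.03, −0.24 and −0.15. CALR kept its call in the 16 other alternatives. PDIA3 kept it in 9 of 17, losing it also with upper-quartile scaling, library size alone, the replicate block and without any 1 knockout library. PDIA4 kept it in 13 of 17, losing it also with library size alone and without knockout replicate 2.

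BiP itself was close to the threshold. HSPA5 (ENSG00000044574) had 1178, 1254 and 1135 CPM in the controls and 995, 957 and 1049 CPM in the knockout libraries. The groups did not overlap, yet the log2 difference of −0.25 ± 0.09 (SE) had an edgeR adjusted p of 0.0529, and with cyclic loess it was 0.09. HSPA5 was called lower with DESeq2, with limma-voom and without control replicate 1 or 3. The ER form of HSP90, HSP90B1, had 814 ± 126 CPM in the controls and 689 ± 26.8 CPM in the knockout (SD, n = 3 each), and its groups overlapped. The isomerases PDIA6 and P4HB stood at log2 differences of −0.19 and −0.23, which cyclic loess turned to 0.07 and 0.12. HYOU1, a nucleotide exchange factor for BiP, was at −0.27, the stress-induced ER protein CRELD2 at −0.28 and SDF2L1, a partner of DNAJB11, at −0.16. None of these was called by edgeR with TMM scaling and all libraries. CRELD2 was called lower with DESeq2 and without control replicate 3, and HYOU1 with the DESeq2 Wald test and without control replicate 1. HSP90B1 was called lower without control replicate 2, and P4HB and SDF2L1 without control replicate 3.

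DNAJB9 (ENSG00000128590), a J-domain protein that binds and restrains IRE1, was the chaperone gene that rose. It had 37.5, 34.4 and 35.4 CPM in control replicates 1, 2 and 3 and 46.3, 46.9 and 45.0 CPM in knockout replicates 1, 2 and 3. No libraries of the groups overlapped, and the mean went from 35.8 ± 1.58 to 46.0 ± 0.943 CPM (SD, n = 3 each; log2 0.36 ± 0.10 SE, edgeR adjusted p = 0.0174), a call lost without any 1 knockout library. DNAJC3, an inhibitor of PERK and co-chaperone of BiP, had 60.6, 40.2 and 51.5 CPM in the controls and 57.7, 52.7 and 48.6 CPM in the knockout libraries. Its groups overlapped, at 0.06 ± 0.15 (SE, adjusted p = 0.766). SDF2L1 had the smallest counts of the 42 genes, down to 411 in control replicate 3.

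Falls and rises occurred both with and without an exact match in the promoter windows, and the difference between these groups was not tested. Of the 10 with ERSE or ERSE-II, 3 fell (CALR, CANX, XBP1) and 1 rose (HERPUD1), at a median log2 fold change of −0.26. Of the 29 whose windows held neither, 12 fell and 3 rose, at a median of −0.23. Among all genes at a mean log2 CPM of 5 or more, 33.5% fell and 12.8% rose, at a median of −0.17. A match describes the letters in the window and not binding of a factor.

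The ERAD genes split. EDEM2, HERPUD1 and EDEM1 rose, SYVN1 and EDEM3 fell, and SEL1L, DERL1 and DERL2 were not called. Without knockout replicates 1, 2 and 3 in turn, 2 genes rose and 1 fell each time. With all libraries, rises made up 37.5% and falls 25.0% of the 8. Among all genes at a mean log2 CPM of 5 or more these shares were 12.8% and 33.5%. The summed level of the 8 was 682 ± 34.9 CPM in the controls and 702 ± 6.57 CPM in the knockout (SD, n = 3 each). EDEM2 (ENSG00000088298), which starts the trimming of mannose from misfolded glycoproteins, had the largest rise, with 25.4, 28.2 and 24.1 CPM in control replicates 1, 2 and 3 and 44.1, 40.6 and 45.1 CPM in knockout replicates 1, 2 and 3. The lowest knockout library was well above the highest control, 1.67-fold on the means of the fit (log2 0.74 ± 0.11 SE, edgeR adjusted p = 0.000765). HERPUD1 (ENSG00000051108), a scaffold of the ERAD membrane complex, had 73.9, 83.9 and 67.6 CPM in the controls and 106, 103 and 109 CPM in the knockout libraries. The groups did not overlap, and the log2 fold change was 0.50 ± 0.11 (SE, adjusted p = 0.00611).

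EDEM1, a second member of the mannosidase family, went from 119 ± 16.2 to 158 ± 6.76 CPM (SD, n = 3 each; edgeR adjusted p = 0.0224), and its call was lost without any 1 knockout library. EDEM3, the third member, moved the other way. It had 129, 94.1 and 136 CPM in the controls and 90.8, 92.2 and 77.6 CPM in the knockout libraries. Control replicate 2 lay just above the highest knockout library, and the fall of 0.46 on the log2 scale (adjusted p = 0.0299) kept its call in 7 of 17 alternatives.

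SYVN1 (ENSG00000162298), the ubiquitin ligase HRD1 at the centre of the ERAD complex, had 82.1, 124 and 127 CPM in control replicates 1, 2 and 3 and 61.0, 55.1 and 61.1 CPM in knockout replicates 1, 2 and 3. Control replicate 1 was much lower than the other controls and still above each knockout library. SYVN1 fell by 0.91 ± 0.16 on the log2 scale (SE, edgeR adjusted p = 0.00168), 1.88-fold. SEL1L, the partner that stabilises SYVN1, had 135, 102 and 149 CPM in the controls and 164, 156 and 148 CPM in the knockout libraries. The groups touched, and the difference of 0.28 ± 0.14 (SE) was not called with TMM scaling (adjusted p = 0.136). It was called higher with library size alone, upper-quartile scaling or cyclic loess and without control replicate 3. The Derlins, channel proteins of the same complex, stood at −0.19 (DERL1, adjusted p = 0.156) and −0.05 (DERL2, 0.759).

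**Figure D3:**
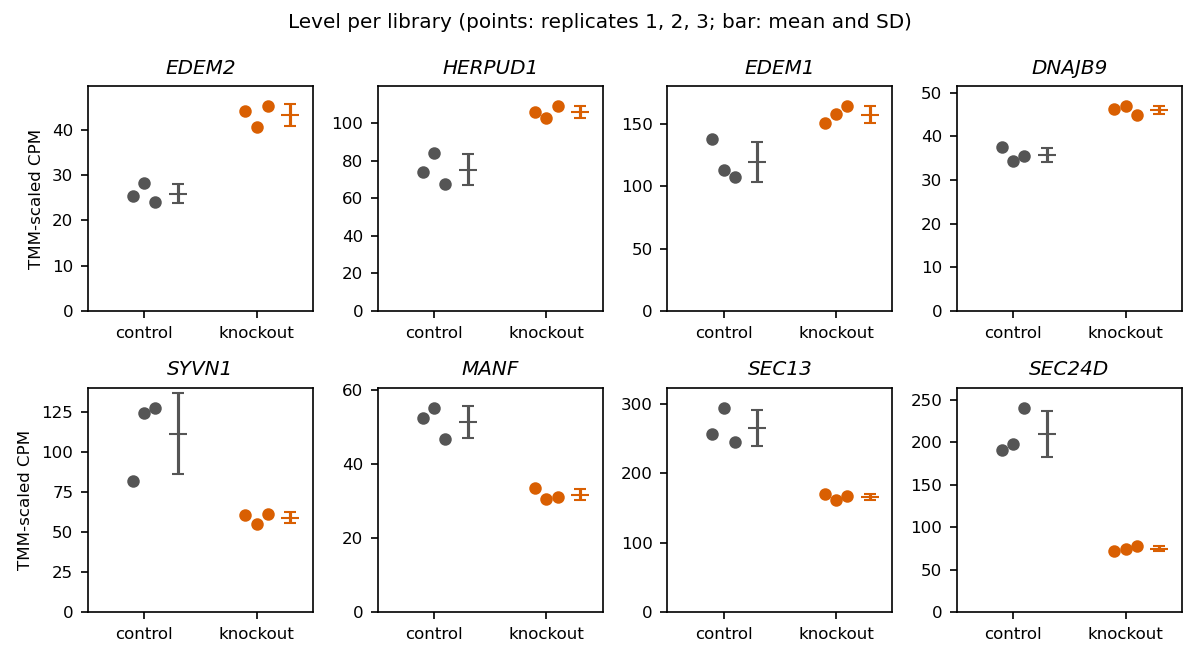
TMM-scaled CPM per library (y axis from 0) of 4 genes that rose (top) and 4 that fell (bottom) in control and knockout, with the mean and SD over 3 libraries beside the points. In each panel the knockout points lie wholly on 1 side of the controls, and in the SYVN1 panel control replicate 1 lies well below the other controls.

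In the translocon, 3 of 5 genes fell and none rose. All 5 lie at a mean log2 CPM of 5 or more, where 33.5% of all tested genes fell and 12.8% rose. The difference from these shares was not tested. Falls among the 5 numbered 1, 0 and 2 without knockout replicates 1, 2 and 3 in turn, and 1 with cyclic loess. With library size alone there were 0. SEC61G (ENSG00000132432), the small gamma subunit of the channel, had 58.9, 52.9 and 58.1 CPM in the controls and 40.0, 35.1 and 44.9 CPM in the knockout libraries. It fell by 0.50 on the log2 scale with no overlap (SE 0.12, edgeR adjusted p = 0.0082), a call lost with library size alone and without knockout replicate 2. The translocon-associated subunit SSR3 had 252, 203 and 235 CPM in the controls and 161, 174 and 187 CPM in the knockout libraries. It fell by 0.40 (adjusted p = 0.0183) and its partner SSR1 fell by 0.33 (0.0442). Both calls were lost with upper-quartile scaling, library size alone and cyclic loess. They were also lost at an adjusted p below 0.01 and when knockout replicate 1 or 2 was dropped. SSR3 kept its call in 11 of 17 alternatives and SSR1 in 6. The SSR1 call was also lost with the replicate block, Ensembl rows alone and without control replicate 1 or 3 or knockout replicate 3.

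The channel-forming subunit SEC61A1 had 465, 480.3 and 425 CPM in the controls and 429.6, 442 and 444 CPM in the knockout libraries. Its groups overlapped, with a log2 difference of −0.06 ± 0.10 (SE, 95% interval −0.27 to 0.15) that upper-quartile scaling, library size alone and cyclic loess turned above 0. SEC61B ranged widely among controls, from 47.5 CPM in replicate 3 to 86.8 CPM in replicate 1, against 55.0 to 57.1 CPM in the knockout. It was not called (edgeR adjusted p = 0.211), but fell when control replicate 3 was left out.

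Of the 10 COPII genes, 5 fell and none rose, with 4 falls under library size alone and 2 under cyclic loess. All 10 lie at a mean log2 CPM of 5 or more, where 33.5% of all tested genes fell and 12.8% rose. The difference from these shares was not tested. The summed level of the 10 COPII genes was 2004 ± 130.1 CPM in the controls and 1452 ± 25.9 CPM in the knockout (SD, n = 3 each). The coat has an inner layer of SEC23 and SEC24, which binds cargo, an outer cage of SEC13 and SEC31A, and the GTPase SAR1, which starts its assembly. SEC24D (ENSG00000150961) had the largest change of all 42 genes, with 191, 198 and 240.4 CPM in control replicates 1, 2 and 3 and 72.4, 74.2 and 78.4 CPM in knockout replicates 1, 2 and 3. The lowest control held more than 2 times the level of the highest knockout library. The fall was 2.80-fold (log2 −1.48 ± 0.12 SE, edgeR adjusted p = 1.65e-05), and the log2 value ranged from −1.58 to −1.30 over the alternatives.

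The other cargo adaptors moved less. SEC24A fell by 0.58 and SEC24C fell by 0.41 on the log2 scale (edgeR adjusted p = 0.00993 and 0.00981), both lost with cyclic loess, where they were −0.34 and −0.22. SEC24A kept its call in the 16 other alternatives, whereas the SEC24C call was also lost with library size alone (−0.23) and on dropping knockout replicate 1 or 2. SEC24B had 63.9 ± 17.3 CPM in the controls and 48.2 ± 1.97 CPM in the knockout (SD, n = 3 each), with overlap and no call (edgeR adjusted p = 0.08), though it was called lower with the DESeq2 Wald test and without control replicate 2. Since a share within a library does not depend on scaling between libraries, each paralog was also expressed as a share of the counts of the 4 SEC24 genes. SEC24D made up 30.8%, 31.8% and 31.3% in the controls and 18.1%, 18.6% and 19.2% in the knockout libraries. The means were 31.3% ± 0.486 against 18.6% ± 0.594 (SD, n = 3 each, 2-sided exact permutation test, p = 0.1, the lowest that 3 against 3 can reach, and 0.15 adjusted over 6 shares). SEC24A held 34.4% ± 3.12 against 38.6% ± 0.459, SEC24B 9.44% ± 1.41 against 12.0% ± 0.571 and SEC24C 24.9% ± 4.32 against 30.8% ± 0.498, each with no overlap. The 4 shares make up a whole, so the smaller share of SEC24D by itself enlarges the sum of the other 3, and the mean CPM of all 3 was lower in the knockout. Per kilobase of longest transcript, SEC24D was the most abundant of the 4 in the controls, at 52.0 CPM per kb, ahead of SEC24A at 36.8, SEC24C at 35.3 and SEC24B at 12.6. In the knockout it stood behind SEC24A and SEC24C, at 18.6 against 26.5 for SEC24C, 24.7 for SEC24A and 9.48 for SEC24B.

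**Figure D4:**
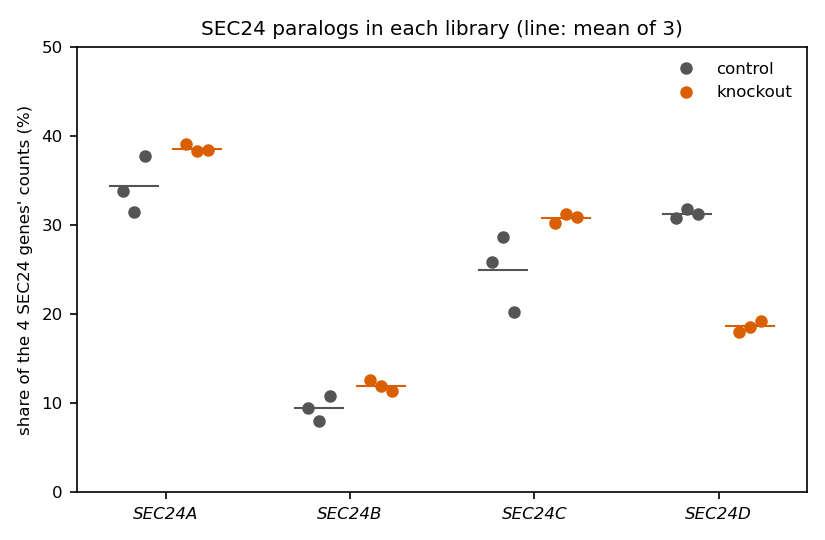
Share of the summed counts of the 4 SEC24 genes held by each gene (y axis, percent) in each library, controls in grey and knockout in orange, with a line at the mean of 3 libraries. SEC24D lies at 30.8% to 31.8% in the controls and 18.1% to 19.2% in the knockout. The other 3 genes each hold a larger share in the knockout. As shares of a whole, their sum must be larger when that of SEC24D is smaller.

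In the outer cage, SEC13 (ENSG00000157020), which also belongs to the nuclear pore, had 256, 294 and 245 CPM in control replicates 1, 2 and 3 and 170.1, 161 and 167 CPM in knockout replicates 1, 2 and 3. It was 1.60-fold lower without overlap (log2 −0.67 ± 0.11 SE, edgeR adjusted p = 0.000886). SEC31A had 292, 287 and 428 CPM in the controls and 221, 222 and 223 CPM in the knockout libraries. Control replicate 3 was far above the other controls, and the fall of 0.59 (adjusted p = 0.0108) was lost with cyclic loess. The inner coat GTPase-activating subunits and the GTPases were not called. SEC23A and SEC23B stood at −0.18 and −0.06 and turned to 0.09 and 0.12 with cyclic loess, and SAR1A and SAR1B stood at −0.15 and −0.12, turning to 0.0073 and 0.03. The share of SEC23A in the SEC23 pair was 74.9% ± 2.68 against 73.5% ± 0.679 (SD, n = 3 each, exact permutation p = 0.7), and that of SAR1A in its pair 52.2% ± 1.37 against 51.7% ± 1.20 (exact permutation p = 0.6). Close paralogs such as these can exchange reads in counting.

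**Figure D5:**
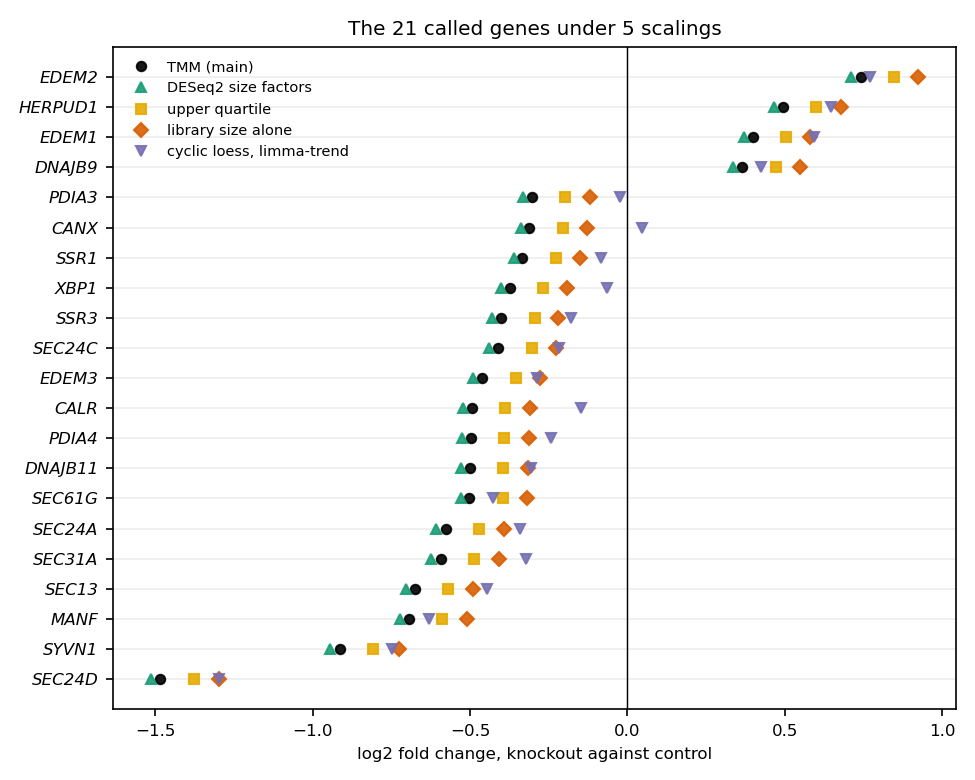
Log2 fold change, knockout against control, of the 21 called genes under 5 scalings (symbols, as named in the key). The 4 rises keep their direction and sit highest with library size alone or cyclic loess. Falls of abundant genes move toward 0 with cyclic loess, and CANX crosses it at 0.05, whereas SEC24D stays at −1.30 or below.

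Other genes of these roles, 126 listed apart from the 42, were counted by the same rule. All but DERL3 could be tested, and 46 of 125 fell (36.8%) and 17 rose (13.6%), at a median log2 fold change of −0.15. With library size alone these counts were 23 and 22, and with cyclic loess 26 and 20. Dropping knockout replicate 1 left 26 falls and 13 rises, and dropping knockout replicate 2 left 29 and 11. Over all tested genes 19.0% fell and 21.1% rose. At a mean log2 CPM of 5 or more 33.5% fell and 12.8% rose, at a median of −0.17, near the shares of the 125. Some of the 125 lie below that level, the lowest at 2.19. The counts per role below, and those of COPI, stand against the same shares.

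Of 14 further sensors and stress regulators, 4 rose and 3 fell. The membrane-bound transcription factors CREB3L2 and CREB3L3, relatives of ATF6 of which the second acts in liver, fell 2.35-fold and 3.11-fold. CREB3L3 had 179, 253 and 306 CPM in the controls and 76.6, 77.2 and 83.6 CPM in the knockout libraries, with no overlap. PPP1R15A, a phosphatase subunit that undoes the block of translation set by PERK, rose from 47.0 ± 3.63 to 108 ± 14.7 CPM (SD, n = 3 each, edgeR adjusted p = 9.23e-05). DDIT3, the stress factor CHOP, was named after its values were seen. It rose from 10.9 ± 2.32 to 28.3 ± 2.95 CPM (adjusted p = 0.000208), while ATF4, which acts upstream of it, had 575 ± 74.6 CPM in the controls and 581 ± 22.4 CPM in the knockout and was not called (adjusted p = 0.937).

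Among 35 other folding factors, 8 rose and 13 fell. RCN1, a calcium-binding protein of the ER lumen, rose 2.79-fold, the cyclophilin PPIC 3.08-fold and DNAJC10, a disulfide reductase that serves ERAD, 1.92-fold. RCN1 had 118, 116 and 112 CPM in the controls and 324, 330.04 and 310.4 CPM in the knockout libraries. In ERAD, 9 of 22 fell and 2 rose. HM13, a signal peptide peptidase, and AUP1, which recruits ubiquitin-conjugating enzyme, fell 1.86-fold and 1.68-fold, and the mannosidase MAN1B1 rose 1.79-fold.

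Of 31 targeting, translocation and N-glycosylation genes, 13 fell and 1 rose. SRPRA, the receptor for the signal recognition particle, and STT3A, a catalytic subunit of oligosaccharyltransferase, fell 1.80-fold and 1.55-fold. TRAM1, a protein beside the channel, was the gene that rose, from 244 ± 10.3 to 355 ± 7.53 CPM (SD, n = 3 each). Of 23 genes of ER exit and the ERGIC, 8 fell and 2 rose, the falls including the cargo receptors SURF4 (−0.63) and TMED2 (−0.55) and the exit-site scaffold SEC16A (−0.52), as log2 fold changes. The COPI coat, which carries vesicles back to the ER, had 5 falls and no rise among 10 genes with TMM scaling. There were 3 falls and 3 rises with library size alone, 3 and 1 with cyclic loess, and 6 and 2 without control replicate 1. COPG1, ARCN1 and COPZ1 fell 1.65-fold, 1.56-fold and 1.42-fold.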

How the data were processed

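Read counts per gene of 6 Huh7 libraries, 3 per group, were used. Per the labels' protocols, total RNA went into a SMARTER mRNA-Seq kit. The deposited table holds raw counts made by the authors, and the submitters' processing notes name hg19. Which aligner, counter, annotation or strand setting was used remains not given in the sources used here; thus overlapping genes and paralogs can share reads. All 6 columns were matched by the sample descriptions. Of 25202 rows, 5228 are loci named by the authors' pipeline, kept in the fit.

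Genes were kept by filterByExpr (16331), scaled by TMM and fitted in edgeR 4.0.16 (R 4.3.3, quasi-likelihood) on group alone. Benjamini-Hochberg adjustment covered every tested gene, and calls were made below 0.05. CPM are TMM-scaled, errors of CPM are SDs over 3 libraries, and SEs of log2 fold changes derive from the F statistic. Per-kilobase levels use the longest GENCODE 29 transcript. Libraries of 1 group differed by more than sampling noise, so all 6 were counted. Chi-square over its degrees of freedom was 55.4 to 86.0 between control libraries and 9.42 to 30.9 between knockout libraries. On simulated counts for this comparison (15947 genes), 12% of genes changed 1.5-fold, 64% at 2-fold and 93.6% at 4-fold were recovered, and none of those changed 1.25-fold, with 2 false among 84 calls.

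The 42 genes and the other lists were chosen with earlier results of these data known. All 42 are named. Values in every library are given for sensors and, per role, the 2 largest changes in each direction. Of the other genes of each role, up to 3 called ones with the smallest p are named, plus DDIT3 and ATF4. Alternatives were DESeq2 1.42.0, limma 3.58.1 (voom, cyclic loess), other scalings and filters, the replicate block, an adjusted p below 0.01, Ensembl rows alone and leaving out each library. Promoters came from RefSeq tables (GRCh38.p14).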

Additional observations from a re-analysis of the deposited data

How the results depend on the processing

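Counts of the 42 genes called higher and lower were 4 and 17. They were 7 and 8 with library size alone, where 1878 of all genes and 23 of the other pathway genes fell. At an adjusted p below 0.01 they were 2 and 9, with 2054 rises and 1930 falls among all genes and 27 falls among the other pathway genes. With cyclic loess 6 genes fell, and 26 of the other pathway genes. The SEC24D share difference of −12.7 percentage points was −14.6 per kilobase. Leaving out 1 library gave 2 to 5 rises and 8 to 20 falls among the 42, 11 to 18 and 26 to 49 among the other pathway genes, and 2369 to 3459 and 2047 to 3439 among all genes. Share differences then ran from −13.0 to −12.4 (SEC24D), 2.83 to 5.92 (SEC24A), 1.81 to 3.22 (SEC24B), 3.52 to 7.77 (SEC24C), −2.52 to 0.0408 (SEC23A) and −1.23 to 0.169 (SAR1A). Of 714 refitted log2 fold changes of the 42 genes, 597 kept direction and call, 70 lost the call, 25 gained it and 22 changed sign, none of them called after the change and 1 of them, CANX, called before. The sign changed with upper-quartile scaling for DERL2 0.060, SEC61A1 0.046 and SEC23B 0.042. With library size alone it changed for SDF2L1 0.013, DERL2 0.14, SEC61A1 0.12, SEC23B 0.12, SAR1A 0.032 and SAR1B 0.061. With cyclic loess it changed for HSPA5 0.089, HSP90B1 0.086, CANX 0.046, PDIA6 0.071, P4HB 0.12, HYOU1 0.0059, SEC61A1 0.22, SEC23A 0.091, SEC23B 0.12, SAR1A 0.0073 and SAR1B 0.029. Without 1 library DNAJC3 reached 0.17, and was −0.089 without control replicate 2 and −0.0035 without knockout replicate 1. The cause of these moves was not tested, apart from the common shift of all genes under the 2 scalings (0.11 with upper-quartile scaling, 0.18 with library size alone).

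No pairing by replicate number was seen in the correlations below, which cannot exclude a small effect shared by same-numbered libraries. Deviations of same-numbered libraries correlated at 0.042, −0.071 and −0.073 across genes, and control replicate 2 correlated best with knockout replicate 3 (0.11). With the replicate number as a block, 13 of the 42 genes fell and 3 rose. Genes that were not called are not shown to be unchanged. The simulated recovery, 12% of 1.5-fold changes, does not measure this for the 42 genes. It came from few changed genes of any abundance, 47 to 50 per size, against 6548 genes called in the data.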

Other observations

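Promoter windows of 34 further genes hold ERSE or ERSE-II, and 21 of them were tested. Genes were counted by symbol, and whether neighbouring genes share an element was not checked. The knockout libraries had 7 of these lower and 1 higher (edgeR, adjusted p under 0.05), at a median log2 fold change of −0.11, with 19.0% lower and 21.1% higher among all tested genes. Among genes at a mean log2 CPM of 5 or more, 33.5% were lower. All of these falls but ZNF143 reach that level, but others of the 21 do not, such as CLEC4F at −1.05 and ERO1B at 2.19. This 33.5% and the count of falls therefore cover unlike sets of genes. Those that fell were RUVBL2 (−0.95), a helicase-like ATPase, the glycogen synthase GYS1 (−0.73), SHCBP1 (−0.65), the DNA damage checkpoint protein RAD9A (−0.61), the antiviral TRIM5 (−0.58), the transcription factor ZNF143 (−0.50) and SERP1 (−0.44), a translocon protein induced by ER stress, all as log2 fold changes. The actin-associated SYNPO rose by 0.62. The other 13 were not called, among them FICD, which modifies BiP, at 0.27, the oxidase ERO1B at −0.11 and the mannosyltransferase ALG12 at −0.14. The genes named here were chosen after their values were seen.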
